A study of Mus musculus with 42 samples.

Results

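Transcript levels of dimly fluorescent epithelial cells were compared between the small intestine and the colon of Lgr5-EGFP-IRES-CreERT2 mice, in which green fluorescent protein is made where the stem cell gene Lgr5 is transcribed. The comparison used the 2 arrays titled small intestine Lgr5Lo and the 3 arrays titled colon Lgr5Lo, 5 of the 42 arrays of the series, chosen by their titles. The spread between arrays was taken from 18 sorted arrays of this mouse line, which also held 4 Lgr5Lo and 4 Lgr5Hi arrays of the pylorus, 2 Lgr5Hi arrays of the small intestine and 3 of the colon. No array of whole tissue or of unsorted crypts entered the fit. The mice were healthy untreated adults of at least 7 to 8 weeks, not selected for sex, and every group used here carried the same reporter allele, knocked into the Lgr5 locus. The reporter is known to be silenced in a share of crypts, so the sorted cells come from the crypts where it is active. The labels describe the Lgr5Lo cells as differentiated cells, against the brightly fluorescent Lgr5Hi cells, which they describe as stem cells. They do not give the stretch of the small intestine or colon, the width of the gates or whether animals were pooled, and their isolation protocol speaks of pylorus only. The replicates are called biological in the titles, and p-values measure the spread between these samples.

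Intestinal crypts renew the epithelium from Lgr5-expressing stem cells at their base. As daughters leave the base they lose Lgr5 and become absorptive enterocytes or colonocytes, mucus-secreting goblet cells, hormone-secreting enteroendocrine cells or tuft cells, and the fluorescent protein, which is long-lived, is passed on and diluted. The small intestine in addition holds Paneth cells, which secrete antimicrobial peptides at the crypt base, and its enterocytes digest and absorb sugar, peptides and fat, while colonocytes recover salt and water beneath a thick mucus layer.

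Dim cells of the small intestine held more transcript of 8 of 14 Paneth cell genes, 10 of 18 brush border enzymes, 17 of 26 fat absorption genes and the hormones Gip and Ghrl. Dim cells of the colon held more transcript of the carbonic anhydrases Car1 and Car2, of 11 of 27 goblet cell genes (4 without small intestine replicate 1), of 19 of 31 mucin glycosylation genes (10 without it) and of 13 of 36 Hox genes. Of 22180 genes, 472 were higher in small intestine and 566 were higher in colon at an adjusted p under 0.05 in limma, together 1038 genes or 4.68% of those tested (2.13% and 2.55% by direction). With each array centred on its median the split was 540 and 462. An unadjusted p under 0.05 was found for 3144 genes, 14.2%. The difference was at least 2-fold in 1003 of the called genes, and at least 16-fold in 59 genes higher in small intestine and 34 higher in colon. The smallest called difference was 0.81 on the log2 scale. All differences below are small intestine minus colon in log2 units, with the standard error after the sign ±. Adjusted p-values are from limma's moderated test, adjusted over all genes by the method of Benjamini and Hochberg, and a gene is called where this p is under 0.05. Where levels are set against each other, a pair of values is the small intestinal replicates 1 and 2 and a set of 3 values the colonic replicates 1 to 3. The arrays of the groups did not overlap in any called gene, but this also held for 8397 of all genes, 37.9%. The median difference over all genes was -0.03. The values carry no detection calls. Levels near or below 3.93, the median of the array medians, are read as near background, and a difference from such a level may be a lower bound. In 296 called genes the lower group mean was under 3.93.

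**Figure D1:**
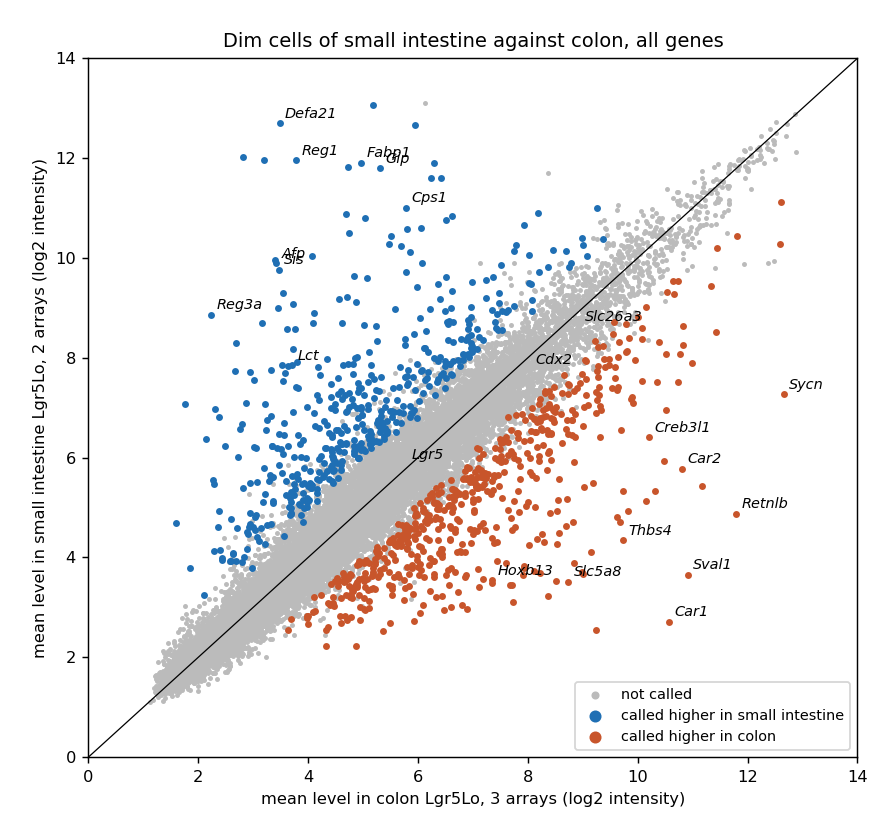
Mean log2 intensity of every gene in colon Lgr5Lo cells (x axis, 3 arrays) and small intestine Lgr5Lo cells (y axis, 2 arrays). Blue points are the 472 genes called higher in small intestine, orange points the 566 called higher in colon and grey points the genes not called, and the line marks equal levels.

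The labelled organs were checked against 4 markers, 2 of small intestinal enterocytes and 2 of colonocytes. Sis, the sucrase-isomaltase of the enterocyte surface, stood at 9.22 and 10.31 in the small intestinal arrays and at 3.19, 3.99 and 3.22 in the colonic arrays, a difference of 6.30 ± 0.79 (adjusted p = 1.85e-05). Lct, the lactase, stood at 7.33 and 8.37 against 3.76, 3.88 and 3.48, a difference of 4.14 ± 0.61 (adjusted p = 0.000129). Both were at or near background in all colonic arrays and well apart from it in both small intestinal arrays. Car1, a cytosolic carbonic anhydrase of colonocytes, stood at 2.60 and 2.83 against 10.16, 10.99 and 10.55 (-7.85 ± 1.19, adjusted p = 0.000189) and was at background in both small intestinal arrays. Slc26a3, the chloride and bicarbonate exchanger of surface colonocytes, did not part the organs. It stood at 8.46 and 8.78 in small intestine and 8.95, 9.41 and 8.45 in colon, the arrays overlapped, and the difference was -0.31 ± 0.85 (adjusted p = 0.953) with a 95% interval from -2.10 to 1.47. Lgr5 itself, the gene behind the sort, stood at 5.52 and 6.20 in small intestine and 6.57, 5.49 and 5.31 in colon, and the organs overlapped (0.07 ± 0.42, adjusted p = 0.981). The Lgr5Hi arrays lay higher, at 8.32 and 8.37 and at 7.01, 7.72 and 8.35.

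The 250 bases before the transcription start of Sis and Lct, which differed, and of Slc26a3, which did not pass the test, are shown because these genes belonged to the label check. No window was available for Car1, the remaining marker. They come from RefSeq with the build GRCm38.p6, on the strand of the gene, 5′ to 3′. Capitals mark matches on either strand to GATAA (the core bound by GATA factors), TTTAT (caudal factors such as Cdx2) and TTAATNATT (a homeodomain motif), and a run of capitals can hold overlapping matches.
Sis, chr3:72967864-72968113, minus strand: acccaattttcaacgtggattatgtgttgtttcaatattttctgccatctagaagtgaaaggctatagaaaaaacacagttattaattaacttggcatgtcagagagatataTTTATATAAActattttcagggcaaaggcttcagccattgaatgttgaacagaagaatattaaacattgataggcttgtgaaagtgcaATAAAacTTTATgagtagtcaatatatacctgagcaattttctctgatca
Lct, chr1:128328319-128328568, minus strand: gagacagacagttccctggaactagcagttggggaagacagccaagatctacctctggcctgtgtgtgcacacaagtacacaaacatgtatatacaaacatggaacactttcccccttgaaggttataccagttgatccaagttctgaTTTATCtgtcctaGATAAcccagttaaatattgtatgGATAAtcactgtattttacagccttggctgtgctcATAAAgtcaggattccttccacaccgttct
Slc26a3, chr12:31437969-31438218, plus strand: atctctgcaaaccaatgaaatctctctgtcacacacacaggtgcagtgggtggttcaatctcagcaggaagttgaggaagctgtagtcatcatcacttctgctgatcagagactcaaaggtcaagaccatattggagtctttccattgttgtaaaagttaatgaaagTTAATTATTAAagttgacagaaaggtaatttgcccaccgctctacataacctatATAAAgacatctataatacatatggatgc
The window of Sis held 4 matches to TTTAT, the window of Lct 3 to GATAA and 2 to TTTAT, and the window of Slc26a3 1 to TTTAT and 2 to TTAATNATT. Those 2 are a single stretch read on both strands, and in Lct 1 match to GATAA overlaps 1 to TTTAT. Of 32851 RefSeq windows of this length, 22.58% held GATAA, 37.26% TTTAT and 1.397% TTAATNATT. These letters are a description and were not tested as binding sites.

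The arrays of a group were not equally alike. The correlation across genes was 0.972 between the small intestinal arrays and 0.981 to 0.987 among the colonic arrays, against 0.920 to 0.929 for small intestine replicate 1 with the colonic arrays and 0.942 to 0.948 for replicate 2. Small intestine replicate 1 was below replicate 2 in 17 of 18 brush border genes and 22 of 27 goblet cell genes, and above it in 21 of 24 enteroendocrine genes and 16 of 18 immediate early and heat shock genes. Colon replicate 2 held the highest colonic level of 9 of 14 Paneth cell genes, and colon replicate 3 that of 18 of 23 tuft cell and 21 of 27 goblet cell genes. Over all 22180 genes, colon replicate 2 was the highest colonic array in 6232 and colon replicate 3 in 8611. Small intestine replicate 1 was below replicate 2 in 11197 of all genes and above it in 10979. Xist, the transcript of the inactive X chromosome, was at 3.09 in colon replicate 1 and between 9.10 and 10.15 in the other arrays, and the Y-linked Eif2s3y was highest in the same array at 6.66, so the groups were not matched for sex. Neither gene was called. What part these contrasts have in the results was not tested beyond leaving out each array. Without small intestine replicate 1, 499 genes were called, and without 1 of the other arrays 730 to 892.

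**Figure D2:**
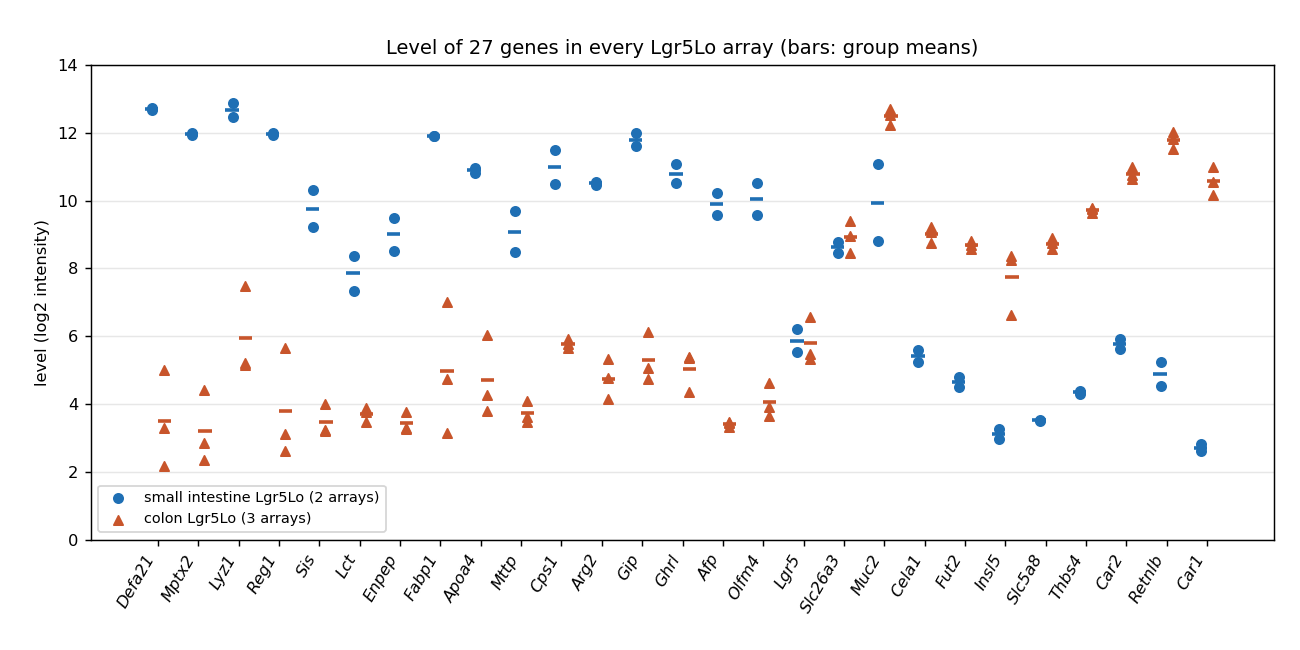
Log2 intensity of 27 genes (x axis) in every Lgr5Lo array, with blue circles for the 2 small intestinal arrays, orange triangles for the 3 colonic arrays and short bars for group means. Genes from Defa21 to Olfm4 are higher in small intestine, Lgr5 and Slc26a3 overlap, Muc2 was not called, and genes from Cela1 to Car1 are higher in colon.

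Products of Paneth cells made the largest differences. Of 14 measured genes of this list 8 were higher in small intestine and 1 in colon, with a median of 3.78. Defa21, an alpha-defensin, stood at 12.73 and 12.67 in small intestine and 3.28, 5.00 and 2.16 in colon (9.22 ± 1.26, adjusted p = 5.73e-05). Lyz1, the Paneth cell lysozyme, stood at 12.46 and 12.88 against 5.22, 7.47 and 5.16 (6.72 ± 1.27, adjusted p = 0.00191). The small intestinal arrays of both genes lay near the top of the array's range, and colon replicate 2 was the highest colonic array for each. Mptx2, a pentraxin of Paneth cells (8.77 ± 0.82, adjusted p = 5.27e-07), Mmp7, the protease that activates defensins (4.78 ± 0.49, adjusted p = 1.54e-06, but 0.29, adjusted p = 0.779 for its probe set of lowest mean), and the defensins Defa22 (9.22 ± 1.09) and Defa26 (7.10 ± 1.11) were also higher. Defa33 (6.56 ± 0.84, adjusted p = 2.73e-05) and Defa39 (7.87 ± 1.76, adjusted p = 0.00863) belonged to the 15 largest differences as well, though Defa39 lost its call without small intestine replicate 1 (adjusted p = 0.100), without replicate 2 (adjusted p = 0.0656) and without colon replicate 3 (adjusted p = 0.0544). Probe sets of these near-identical defensins can share signal. Defa24 stood at 3.95, 10.30 and 4.14 in the colonic arrays, far apart in replicate 2, and its difference of 6.98 ± 2.10 did not pass (adjusted p = 0.0668). Itln1, an intelectin (2.73 ± 0.65, adjusted p = 0.0137), and Habp2, a hyaluronan-binding protease (2.77 ± 0.57, adjusted p = 0.00426), were the other called members, but Itln1 was not called without small intestine replicate 1 (adjusted p = 0.0812) or 2 (adjusted p = 0.124) or colon replicate 1 (adjusted p = 0.0851), nor Habp2 without small intestine replicate 2 (adjusted p = 0.0961). Ang4, a ribonuclease of Paneth and goblet cells, was high in both organs (11.28 and 11.01 against 11.28, 11.30 and 11.72) and not called, and Nupr1, a stress-responsive chromatin protein, was higher in colon (-2.84 ± 0.43, adjusted p = 0.000173). The mean level of the whole list was 10.14 and 10.24 in the small intestinal arrays and 5.47, 6.97 and 5.72 in the colonic arrays. In sorted bulk samples, fewer cells of a type and less RNA per cell cannot be told apart.

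Of the lectins that Paneth cells and enterocytes release, Reg1 and Reg3a were higher in small intestine. Reg1 stood at 11.98 and 11.94 in small intestine and 2.60, 5.64 and 3.11 in colon (8.17 ± 1.07, adjusted p = 3.17e-05). Reg3a, a bactericidal lectin, stood at 8.70 and 9.03 against 2.10, 2.57 and 2.04 (6.63 ± 0.55, adjusted p = 1.35e-07). No array of one organ came near the other for these genes. Reg3g was higher as well (3.11 ± 0.80, adjusted p = 0.0261), a call lost without small intestine replicate 1 (adjusted p = 0.0933) or 2 (adjusted p = 0.208) and without colon replicate 1 (adjusted p = 0.121) or 3 (adjusted p = 0.107), and Reg3b missed the test (3.34 ± 0.99, adjusted p = 0.0621) with 7.10, 10.33 and 7.65 in the colonic arrays. On the other side, the colon held more of the superoxide-producing oxidase Nox1, at 7.96, 6.93 and 6.66 against 3.64 and 3.48 (-3.62 ± 0.38, adjusted p = 2.29e-06), of Tlr4, the receptor for lipopolysaccharide (-2.20 ± 0.29, adjusted p = 4.03e-05), and of Duox2, an oxidase that makes hydrogen peroxide (-2.59 ± 0.52, adjusted p = 0.00332, and adjusted p = 0.142 without small intestine replicate 1). Of the 24 measured Reg lectin and defence genes 3 were higher in small intestine and 4 in colon, with a median of -0.10. These counts were 2 and 2 without small intestine replicate 1. Lypd8, a protein that keeps bacteria off the colonic surface, was high in both organs (11.87 and 12.43 against 12.48, 12.55 and 12.33) and not called.

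The enzymes of the brush border finish the digestion of sugars and peptides at the cell surface. Of 18 measured, 10 were higher in small intestine and 1 in colon, with a median of 2.17. Enpep, an aminopeptidase, stood at 8.52 and 9.49 in small intestine and 3.27, 3.77 and 3.29 in colon (5.56 ± 0.55, adjusted p = 1.08e-06). Anpep, aminopeptidase N, stood at 10.27 and 11.26 against 6.09, 6.39 and 7.04 (4.26 ± 0.52, adjusted p = 1.32e-05), so it was well above background in both organs. The alkaline phosphatases Alpi (4.94 ± 0.85, adjusted p = 0.000744) and Akp3 (3.98 ± 0.75), the endopeptidase Mme (4.79 ± 0.58, adjusted p = 1.31e-05) and the trehalase Treh (2.76 ± 0.42) were higher too. Mgam, the maltase-glucoamylase that works beside sucrase-isomaltase, was high in both organs, at 8.75 and 9.88 against 9.15, 9.07 and 8.96, with a difference of 0.25 ± 0.50 (adjusted p = 0.923). Dpp4, a dipeptidyl peptidase, stood at 8.50 and 8.89 against 8.02, 8.00 and 7.64 and was not called (adjusted p = 0.368). The meprin subunits differed in direction. Mep1b was higher in small intestine (2.39 ± 0.59, adjusted p = 0.0198) and Mep1a in colon (-1.81 ± 0.46, adjusted p = 0.0221), but both calls were lost without small intestine replicate 1 (adjusted p = 0.188 for Mep1b and adjusted p = 0.572 for Mep1a) and without colon replicate 3 (adjusted p = 0.0834 and adjusted p = 0.0621). Mep1b also lost it without small intestine replicate 2 (adjusted p = 0.0989) or colon replicate 1 (adjusted p = 0.0627), and Mep1a without colon replicate 2 (adjusted p = 0.0837). No brush border gene was called higher in colon without small intestine replicate 1, colon replicate 2 or colon replicate 3.

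Genes of membrane mucins and of the proteins that build the brush border itself formed a separate list. Of 18 measured, none was higher in small intestine and 2 were higher in colon at the adjusted threshold in limma, with a median of -0.01. The share higher in colon was 11.1%, against 2.55% of all genes. Vil1, the actin bundler villin, stood at 9.19 and 10.01 against 9.44, 9.49 and 9.68, and Myo1a, the brush border myosin, at 8.59 and 9.39 against 8.57, 8.47 and 8.61. The arrays of both genes overlapped between organs. Cdh17, the intestinal cadherin, stood at 9.57 and 10.23 against 9.34, 9.39 and 9.29 and was not called (0.56 ± 0.49, adjusted p = 0.736). The membrane mucin Muc1 was higher in colon (-1.77 ± 0.31, adjusted p = 0.000845, but adjusted p = 0.200 with all arrays of the reporter line in the fit), as was Ezr, the actin linker ezrin (-1.09 ± 0.28, adjusted p = 0.0241), whose call was lost without small intestine replicate 1 (adjusted p = 0.570) or any 1 colonic array (adjusted p = 0.0733, adjusted p = 0.0661 and adjusted p = 0.0736).

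Transporters of digestion products stood higher in small intestine in 8 of 16 genes and in colon in none, with a median of 1.55. Slc7a9, which takes up cystine and basic amino acids, stood at 7.36 and 6.78 in small intestine and 3.39, 3.40 and 2.84 in colon (3.86 ± 0.32, adjusted p = 1.35e-07). Its partner subunit Slc3a1 stood at 7.05 and 7.99 against 4.73, 5.07 and 5.47 (2.43 ± 0.36, adjusted p = 0.000163). Both subunits were apart between the organs in every array. Slc2a2, the basolateral glucose transporter GLUT2 (3.13 ± 0.48, adjusted p = 0.000223), Slc6a20a, a proline carrier (3.08 ± 0.52), Slc6a19, the main carrier of neutral amino acids (2.14 ± 0.34), Slc7a8 (3.39 ± 0.53) and the aromatic amino acid carrier Slc16a10 (2.11 ± 0.37) were higher as well. The sodium-coupled glucose transporter Slc5a1 stood at 7.90 and 8.63 against 7.81, 7.63 and 7.89 and did not pass (0.49 ± 0.46, adjusted p = 0.767). The peptide transporter Slc15a1 stood at 6.49 and 7.47 against 5.03, 5.86 and 4.97 and did not pass either (1.69 ± 0.67, adjusted p = 0.209). Its arrays did not overlap between organs. A limma fit on the 5 arrays alone called Slc15a1 (1.69 ± 0.34, adjusted p = 0.00877) but not Slc5a1 (adjusted p = 0.289).

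Of 26 fat absorption genes 17 were higher in small intestine and none in colon, with a median of 2.15. The median was 2.46 without small intestine replicate 1 and 1.71 without replicate 2, and the count was 16 without colon replicate 3. Cd36 was not called with all arrays of the reporter line in the fit (adjusted p = 0.0780). Gpat3 was not called by its probe set of lowest mean (0.60, adjusted p = 0.405). Fabp1, a fatty acid carrier of the cytosol, stood at 11.90 and 11.91 in small intestine and 3.15, 7.00 and 4.74 in colon (6.95 ± 0.96, adjusted p = 6.57e-05). Mttp, which loads lipid onto apolipoprotein B, stood at 8.48 and 9.68 against 3.47, 4.08 and 3.62 (5.36 ± 0.47, adjusted p = 2.78e-07). The colonic arrays of Fabp1 were spread widely, with replicate 2 highest, and those of Mttp were all near background. The apolipoproteins Apoa4 (6.19 ± 0.82, adjusted p = 3.87e-05), Apoc2 (4.80 ± 0.53, adjusted p = 4.46e-06) and Apoa1 (4.50 ± 0.70), the cholesterol importer Npc1l1 (4.25 ± 0.49, adjusted p = 6.58e-06) and the triglyceride-forming enzyme Dgat1 (3.12 ± 0.29, adjusted p = 6.18e-07) followed. Abcg5 (2.96 ± 0.29) and Abcg8 (2.51 ± 0.27), whose products pair to pump plant sterols back into the lumen, were both higher. Fabp2, the intestinal fatty acid carrier, was among the highest transcripts of both organs, at 11.78 and 11.71 against 10.89, 11.37 and 11.25, and was not called (0.58 ± 0.63, adjusted p = 0.810).

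Rbp2, the cellular retinol carrier of enterocytes, stood at 11.44 and 11.75 in small intestine and 5.66, 7.34 and 6.26 in colon (5.18 ± 0.60, adjusted p = 7.93e-06). With the retinol dehydrogenase Rdh7 (3.32 ± 0.43, adjusted p = 2.65e-05) and Lrat, which esterifies retinol (1.26 ± 0.35, adjusted p = 0.0389), it was 1 of 3 among 15 retinoid genes called higher in small intestine, and none was higher in colon. The median of that list was -0.04. Lrat lost its call without any 1 of the 5 arrays, with an adjusted p from 0.0587 to 0.345. Of 9 bile acid genes 2 were higher in small intestine and 1 in colon, with a median of -0.11. Abcc2, an apical exporter of conjugates, stood at 8.04 and 7.63 against 3.56, 3.74 and 3.62 (4.19 ± 0.29, adjusted p = 7.02e-09), with every colonic array below background. Slc51a, a subunit of the basolateral bile acid exporter, was higher (3.40 ± 0.65, adjusted p = 0.00228, and adjusted p = 0.0502 without small intestine replicate 2). Fabp6, the ileal bile acid carrier, was higher in colon, at 7.64, 8.44 and 8.42 against 6.86 and 5.57 (-1.95 ± 0.37, adjusted p = 0.00194, and adjusted p = 0.0954 without small intestine replicate 2 and adjusted p = 0.225 with all arrays of the reporter line in the fit). Slc10a2, the ileal bile acid importer, lay at 3.44 and 3.20 against 3.28, 3.95 and 3.70, near or below background in both organs. The counts of this list were 1 and 0 without small intestine replicate 2.

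S100g, the vitamin D-dependent calcium carrier calbindin, stood at 11.20 and 10.46 in small intestine and 6.45, 7.21 and 6.22 in colon (4.21 ± 0.63, adjusted p = 0.000174). The other mineral and vitamin genes parted less. Of 19 measured 2 were higher in small intestine and 1 in colon, with a median of -0.20, and of these S100g alone kept its call without each array in turn. Slc19a3, a thiamine carrier (1.17 ± 0.30, adjusted p = 0.0236, with adjusted p = 0.270 without small intestine replicate 1, adjusted p = 0.0851 without replicate 2, and adjusted p = 0.115 and adjusted p = 0.0827 without colon replicates 1 and 3), and Slc52a3, a riboflavin carrier (-1.24 ± 0.30, adjusted p = 0.0163, with adjusted p = 0.491 without small intestine replicate 1, and adjusted p = 0.0650 and adjusted p = 0.0624 without colon replicates 1 and 3), were the other two. The iron importer Slc11a2 stood at 6.38 and 6.96 against 5.90, 5.85 and 6.17 (0.69 ± 0.29, adjusted p = 0.242), and the ferritin chain Fth1 at 11.94 and 12.03 against 11.78, 11.89 and 11.87 (0.14 ± 0.21, adjusted p = 0.887).

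Of 10 enzymes of citrulline and arginine metabolism 6 were higher in small intestine and none in colon, with a median of 1.62. Cps1, the mitochondrial carbamoyl phosphate synthetase, stood at 10.50 and 11.51 in small intestine and 5.91, 5.64 and 5.78 in colon (5.23 ± 0.51, adjusted p = 8.99e-07). Arg2, the mitochondrial arginase, stood at 10.55 and 10.46 against 4.14, 5.33 and 4.75 (5.76 ± 0.59, adjusted p = 1.51e-06). Neither gene overlapped between organs, and Arg2 was near background in colon replicate 1. Otc, which joins carbamoyl phosphate to ornithine (2.18 ± 0.31, adjusted p = 8.66e-05), and Nags, which makes the activator of Cps1 (2.02 ± 0.25, adjusted p = 1.76e-05, but 0.46, adjusted p = 0.659 for its probe set of lowest mean), were higher too, as were Oat (1.73 ± 0.38, adjusted p = 0.00741) and Aldh18a1 (1.50 ± 0.35, adjusted p = 0.0109), which lead from glutamate to ornithine and whose calls were lost without small intestine replicate 2 (adjusted p = 0.187 and adjusted p = 0.213). The enzymes of the next steps, which are in the same list, were not called. Ass1, which turns citrulline towards arginine, stood at 3.33 and 3.81 against 4.20, 4.45 and 4.44 (-0.79 ± 0.41, adjusted p = 0.403), and Asl at 5.56 and 6.21 against 5.65, 6.20 and 6.38 (-0.19 ± 0.42, adjusted p = 0.935).

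Genes of drug and foreign compound metabolism were higher in small intestine in 9 of 27 and in colon in 1, with a median of 1.25. Cyp3a25, a cytochrome P450, stood at 7.29 and 6.67 in small intestine and 2.29, 2.56 and 2.07 in colon (4.67 ± 0.55, adjusted p = 8.19e-06). Nr1i3, the nuclear receptor CAR that senses foreign compounds, stood at 8.45 and 7.49 against 4.46, 4.37 and 4.21 (3.62 ± 0.32, adjusted p = 3.24e-07). The related receptor Nr1i2, PXR, was not called, at 7.32 and 7.41 against 7.01, 6.89 and 6.96 (0.41 ± 0.48, adjusted p = 0.829). Cyp2c66 (3.10 ± 0.37, adjusted p = 9.51e-06), Cyp3a11 (2.66 ± 0.44, adjusted p = 0.000557) and Cyp4f14 (2.06 ± 0.33, adjusted p = 0.000413) were higher in small intestine, and Cyp2c55 was higher in colon, at 7.22, 8.47 and 8.35 against 5.09 and 5.11 (-2.91 ± 0.59, adjusted p = 0.00350). Without small intestine replicate 1 the counts were 5 and 0, and Cyp2c55 then missed the threshold (adjusted p = 0.0543), as did its probe set of lowest mean (-3.29, adjusted p = 0.0746). A fit on the 5 arrays alone gave 15 and 2, against 923 and 1005 of all 22180 genes.

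Of 15 ketogenesis and fatty acid oxidation genes 1 was called, higher in colon, and 6 had an unadjusted p under 0.05, with a median of 0.13. The called gene was Pparg, a nuclear receptor for fatty acids, at 7.68, 8.04 and 8.22 in colon and 5.82 and 6.38 in small intestine (-1.88 ± 0.42, adjusted p = 0.00913, and adjusted p = 0.215 without small intestine replicate 1). Sterol synthesis had a lower mean in small intestine in all 12 measured genes, with a median of -1.15. Over all 22180 genes 10296 had a positive difference. Small intestine replicate 1 was below replicate 2 in 11 of the 12, against 11197 of all genes, so the signs are not separate observations. In this list 4 genes were called. The 4 were Sqle (-1.30 ± 0.27, adjusted p = 0.00429), Fdft1 (-1.49 ± 0.41, adjusted p = 0.0371), Cyp51 (-1.31 ± 0.37, adjusted p = 0.0429) and Dhcr7 (-1.12 ± 0.31, adjusted p = 0.0446), all enzymes from squalene formation to cholesterol. Without small intestine replicate 1 none of the 4 was called in limma (adjusted p from 0.263 to 0.726), and without any 1 colonic array only Sqle was. Of the 12 genes 9 had an unadjusted p under 0.05. A fit on the 5 arrays alone called 9 higher in colon, against 1005 of all 22180 genes.

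Colonic dim cells were marked by genes of ion and water transport. Of 28 measured, 10 were higher in colon and 1 in small intestine, with a median of -0.68. Car2, a cytosolic carbonic anhydrase, stood at 10.65, 11.00 and 10.75 in colon and 5.92 and 5.63 in small intestine (-5.02 ± 0.30, adjusted p = 1.44e-09). Hsd11b2, which shields the mineralocorticoid receptor from glucocorticoids, stood at 9.56, 8.91 and 9.06 against 5.40 and 5.59 (-3.69 ± 0.35, adjusted p = 7.21e-07). The arrays of each organ lay close together for both genes. The sodium channel subunits Scnn1a (-2.12 ± 0.30, adjusted p = 0.000104) and Scnn1b (-1.97 ± 0.34, adjusted p = 0.000695) and the water channel Aqp4 (-2.55 ± 0.36, adjusted p = 9.20e-05) were higher in colon, whereas Scnn1g, the remaining subunit, was not called (-0.67 ± 0.24, adjusted p = 0.150). Aqp8, a water channel of surface colonocytes, lay at 3.54, 4.84 and 3.54 in colon and 3.65 and 3.52 in small intestine, at background in 4 of the 5 arrays. Nr3c2, the mineralocorticoid receptor, was higher in colon (-1.70 ± 0.33, adjusted p = 0.00235), but not without small intestine replicate 1 (adjusted p = 0.110) or by its probe set of lowest mean (-0.14, adjusted p = 0.934). Slc26a6, another anion exchanger of the Slc26 family, was the 1 gene higher in small intestine, at 7.86 and 7.96 against 3.82, 3.83 and 3.77 (4.10 ± 0.42, adjusted p = 1.51e-06). Guca2a, the peptide guanylin, was high in both organs, at 12.12 and 12.12 against 12.90, 12.97 and 12.79, and not called (adjusted p = 0.766).

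Short-chain fatty acids made by bacteria are a main fuel of colonocytes. Slc5a8, their sodium-coupled importer, stood at 8.57, 8.74 and 8.89 in colon and 3.49 and 3.54 in small intestine (-5.22 ± 0.39, adjusted p = 3.53e-08), at background in both small intestinal arrays. Ffar4, a receptor for long-chain fatty acids, was higher in colon (-2.82 ± 0.28, adjusted p = 1.40e-06), as was Ffar2, a receptor for short-chain ones (-1.13 ± 0.29, adjusted p = 0.0230), a call lost without small intestine replicate 1 (adjusted p = 0.135) or 2 (adjusted p = 0.147) and without colon replicate 2 (adjusted p = 0.0957) or 3 (adjusted p = 0.114). These were the 3 called of 10 measured, with a median of -0.14. Slc16a1, the proton-coupled importer, was at 7.14 and 7.61 against 8.11, 7.98 and 7.95 and did not pass (-0.64 ± 0.33, adjusted p = 0.402).

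Goblet cell and deep crypt secretory genes were higher in colon in 11 of 27 genes and in small intestine in none, with a median of -1.45. Retnlb, a bactericidal goblet cell protein, stood at 11.51, 11.81 and 12.04 in colon and 4.52 and 5.23 in small intestine (-6.91 ± 0.42, adjusted p = 1.69e-09). Creb3l1, a transcription factor of the secretory pathway, stood at 10.17, 10.00 and 10.47 against 5.53 and 7.30 (-3.80 ± 0.44, adjusted p = 7.93e-06). Best2, an anion channel that is also in the ion transport list, stood at 7.76, 7.45 and 7.79 against 3.74 and 3.16 (-4.22 ± 0.35, adjusted p = 1.35e-07). All colonic arrays of these genes were above all small intestinal arrays by a wide margin. Atoh1, the factor that sets the secretory fate, was higher in colon too (-2.35 ± 0.40, adjusted p = 0.000645), as were its partner Spdef (-1.63 ± 0.30, adjusted p = 0.00133) and the receptor Kit (-1.88 ± 0.33, adjusted p = 0.000845), a marker of deep crypt secretory cells. The main mucin Muc2 stood at 12.24, 12.53 and 12.69 in colon and at 8.79 and 11.08 in small intestine, with small intestine replicate 1 far below replicate 2, and its difference did not pass (-2.55 ± 1.06, adjusted p = 0.250). Fcgbp, another mucus protein, had the same split in small intestine, 9.35 and 11.65, and was not called (adjusted p = 0.568). Tff3 (11.41 and 11.12 against 10.87, 10.75 and 11.06), Spink4 (12.39 and 12.16 against 12.40, 12.52 and 12.51) and Zg16 (11.15 and 11.61 against 11.60, 11.46 and 11.16) were near the top of the range in both organs and not called. Without small intestine replicate 1, 4 genes of the list were called, and Spdef (adjusted p = 0.0605) and Kit (adjusted p = 0.0638) were not among them. A fit on the 5 arrays alone called 18 higher in colon and 1 higher in small intestine, against 1005 and 923 of all 22180 genes.

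The list of mucin-type glycosylation held 31 measured enzymes and carriers, not all of them specific to mucins. In this list 19 genes were higher in colon and 1 in small intestine, with a median of -1.46. Fut2, which adds the terminal fucose of secreted glycans, stood at 8.68, 8.56 and 8.82 in colon and 4.78 and 4.49 in small intestine (-4.05 ± 0.27, adjusted p = 4.60e-09). St6gal1, a sialyltransferase, stood at 8.23, 8.17 and 7.94 against 3.21 and 4.24 (-4.39 ± 0.29, adjusted p = 5.02e-09). B3gnt6, which makes the core-3 chain of colonic mucin, stood at 7.19, 8.29 and 9.18 against 3.68 and 3.70 (-4.53 ± 0.51, adjusted p = 5.09e-06). In small intestine Fut2 lay above background in both arrays, and the other two lay near it. St6galnac6 (-3.79 ± 0.44, adjusted p = 7.00e-06), B3gnt7 (-3.59 ± 0.39, adjusted p = 3.96e-06, but -0.98, adjusted p = 0.189 for its probe set of lowest mean), the core-2 enzyme Gcnt1 (-2.04 ± 0.31, adjusted p = 0.000228) and C1galt1, which makes core 1 (-1.48 ± 0.24, adjusted p = 0.000380), were higher in colon as well. The related core-2 enzyme Gcnt4 was the 1 gene higher in small intestine, at 7.40 and 7.74 against 5.11, 5.28 and 5.19 (2.37 ± 0.34, adjusted p = 0.000108). Leaving out small intestine replicate 1 left 10 genes called higher in colon.

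**Figure D3:**
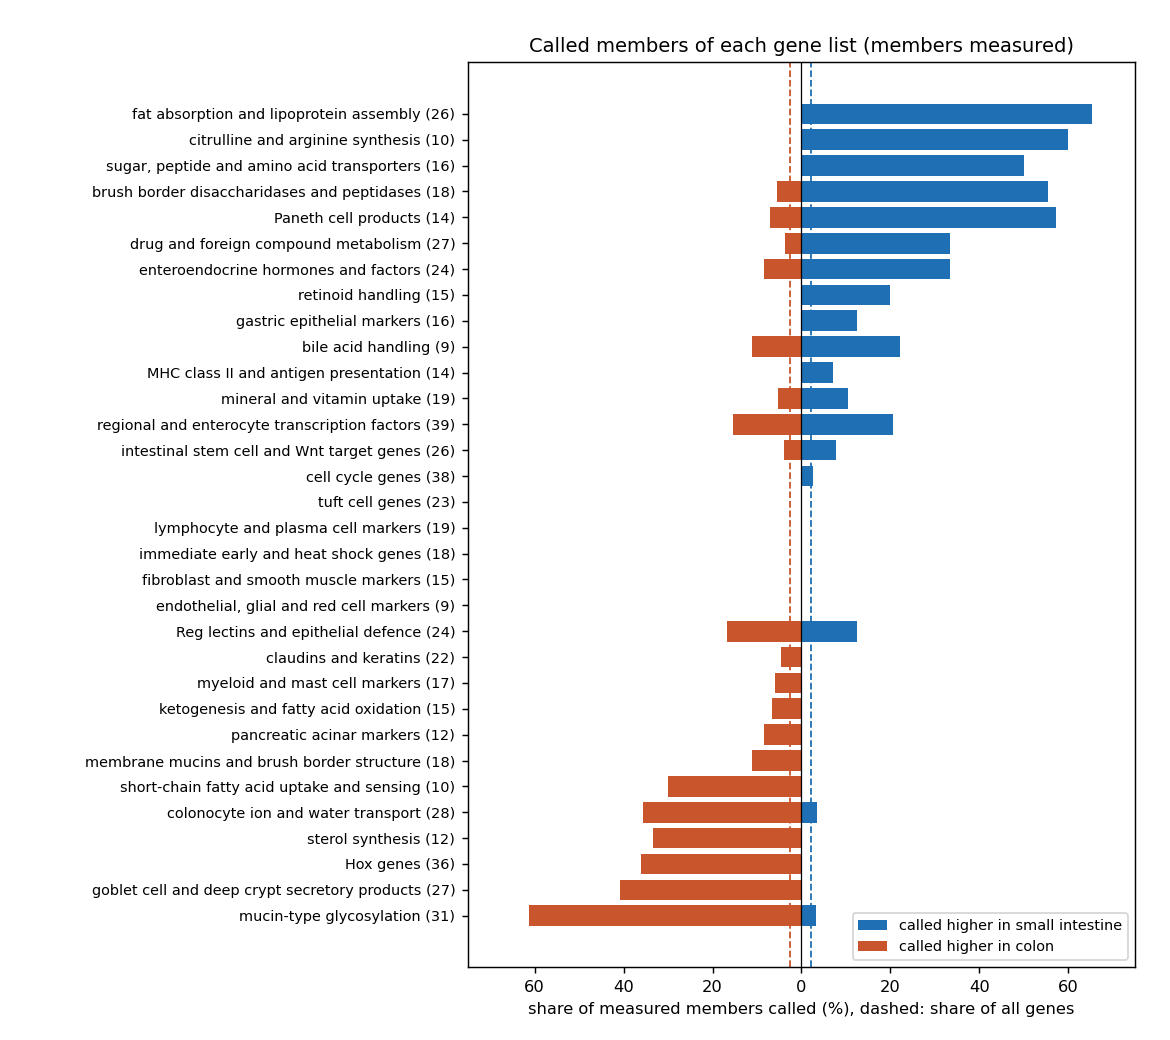
Share of the measured members of each gene list (number measured in brackets) called higher in small intestine (blue, to the right) or in colon (orange, to the left), in percent. Dashed lines mark the share of all 22180 genes, 2.13% and 2.55%. Fat absorption lies on the right with 17 of 26 genes and mucin-type glycosylation on the left with 19 of 31.

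Hormones of enteroendocrine cells differed in both directions. Of 24 genes of this list 8 were higher in small intestine and 2 in colon, with a median of 1.35. Gip, the incretin of K cells, stood at 12.00 and 11.61 in small intestine and 5.07, 6.12 and 4.73 in colon (6.49 ± 0.97, adjusted p = 0.000159). Ghrl, ghrelin, stood at 11.07 and 10.52 against 4.35, 5.39 and 5.36 (5.76 ± 0.42, adjusted p = 2.00e-08), and Cck, cholecystokinin, at 10.15 and 9.64 against 4.73, 5.97 and 7.49 (3.83 ± 0.59, adjusted p = 0.000214). The gap was wide for Gip and Ghrl and narrowest for Cck, whose colonic arrays ranged most. Tac1, the precursor of substance P (3.64 ± 0.47, adjusted p = 3.01e-05), and Rfx6, an endocrine transcription factor (2.53 ± 0.28, adjusted p = 4.92e-06), were higher too, as were Sst, somatostatin (2.71 ± 0.49, adjusted p = 0.00136), Sct, secretin (2.48 ± 0.52, adjusted p = 0.00508), and the factor Nkx2-2 (1.37 ± 0.26, adjusted p = 0.00241), but Sst (adjusted p = 0.0884), Sct (adjusted p = 0.141) and Nkx2-2 (adjusted p = 0.0824) were not called without small intestine replicate 1, nor Sst with all 42 arrays in the fit (adjusted p = 0.0672), and the first left 5 genes of the list called higher in small intestine. Insl5, a peptide of distal L cells, stood at 6.61, 8.36 and 8.23 in colon and 2.95 and 3.26 in small intestine (-4.62 ± 0.41, adjusted p = 3.25e-07). Pyy, peptide YY, stood at 9.56, 10.59 and 11.28 against 6.17 and 5.70 (-4.54 ± 0.57, adjusted p = 2.13e-05). Gcg, whose product in the gut is glucagon-like peptide, was high in both organs and overlapped, at 9.70 and 8.57 against 8.67, 9.50 and 10.85 (-0.54 ± 0.50, adjusted p = 0.762), and the pan-endocrine Chga stood at 9.88 and 9.15 against 7.82, 7.57 and 8.56 (1.53 ± 0.66, adjusted p = 0.276). Nts, neurotensin, ranged over the colonic arrays from 2.68 to 8.15 and was not called. The list as a whole had a mean level of 7.65 and 7.15 in small intestine and 5.61, 6.11 and 6.51 in colon.

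Tuft cell genes gave no call in either direction, 0 of 23 in limma, with 2 at an unadjusted p under 0.05 and a median of 0.33. With 4.68% of all genes called, a list of this size would hold few calls. Dclk1, their usual marker, stood at 5.62 and 6.95 in small intestine and 6.09, 6.10 and 6.84 in colon, and Trpm5, a taste-pathway channel, at 5.77 and 5.99 against 5.66, 5.76 and 5.90. Both overlapped between organs. The difference of Dclk1 was -0.06 ± 0.72, and a fit on the 5 arrays alone called 1 gene of the list, higher in colon. Over all 22180 genes that fit called 1005 higher in colon.

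The transcription factors of the list on regional and enterocyte identity split in both directions, 8 of 39 higher in small intestine and 6 in colon, with a median of 0.09. Gata4, the factor of the jejunum and duodenum, stood at 6.92 and 7.87 in small intestine and 4.55, 5.14 and 5.17 in colon (2.44 ± 0.34, adjusted p = 6.44e-05). Onecut2 stood at 5.48 and 6.53 against 3.77, 3.60 and 3.88 (2.25 ± 0.34, adjusted p = 0.000194). Neither overlapped, and Onecut2 was below background in every colonic array. Maf (3.57 ± 0.65, adjusted p = 0.00129), Gata5 (1.90 ± 0.36, adjusted p = 0.00194) and Creb3l3, an activator of apolipoprotein genes (2.06 ± 0.30, adjusted p = 0.000139), were also higher in small intestine, as was Hnf4g (2.36 ± 0.47, adjusted p = 0.00303, and adjusted p = 0.0778 without small intestine replicate 2). In colon, Tfcp2l1 stood at 7.94, 7.83 and 8.12 against 4.85 and 5.21 (-2.93 ± 0.39, adjusted p = 3.89e-05) and Klf4, a factor of goblet and surface cells, at 8.88, 8.92 and 8.76 against 6.21 and 6.61 (-2.44 ± 0.38, adjusted p = 0.000258). Foxa1 (-2.03 ± 0.33, adjusted p = 0.000356) and Ehf (-1.77 ± 0.26, adjusted p = 0.000112) were higher there too. Factors that act along the whole intestine were not called, such as Cdx2 at 7.52 and 8.00 against 7.63, 8.04 and 8.42 (-0.27 ± 0.53, adjusted p = 0.923) and Hnf4a at 7.83 and 8.62 against 8.35, 8.28 and 8.43 (-0.13 ± 0.32, adjusted p = 0.944).

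Hox genes, which carry positional identity along the body axis, were higher in colon in 13 of 36 measured and in small intestine in none, with a median of -0.64. Hoxb13 stood at 7.25, 7.16 and 7.61 in colon and 3.92 and 3.16 in small intestine (-3.80 ± 0.39, adjusted p = 1.62e-06). Hoxd13 stood at 7.13, 6.55 and 7.65 against 3.37 and 3.45 (-3.69 ± 0.41, adjusted p = 5.00e-06), and Hoxa13 at 5.72, 6.07 and 6.31 against 2.64 and 3.15 (-3.14 ± 0.26, adjusted p = 1.24e-07). The small intestinal arrays of all 3 were at or below background, so these differences may be lower bounds. By cluster, 8 of 9 Hoxa genes, 3 of 10 Hoxb genes, 2 of 8 Hoxd genes and none of 9 Hoxc genes were called in limma. The Hoxc genes ranged from -0.23 to 0.33, and none had an unadjusted p under 0.05. Their levels lay between 2.26 and 4.27 in all 5 arrays, near or below background in both organs. These values therefore do not show that the Hoxc cluster was equally transcribed in the organs. Besides Hoxa13, the called Hoxa genes were Hoxa2 (-1.42 ± 0.27), Hoxa3 (-1.61 ± 0.32), Hoxa5 (-2.12 ± 0.31), Hoxa6 (-1.49 ± 0.31), Hoxa7 (-1.49 ± 0.31), Hoxa9 (-2.54 ± 0.35) and Hoxa10 (-1.03 ± 0.29). Their differences did not grow steadily with the paralogue number, and that of Hoxa10 was the smallest. Hoxb9 (-2.38 ± 0.32) had the next largest difference of its cluster after Hoxb13. Without small intestine replicate 2 the list had 9 called genes, with Hoxa6 (adjusted p = 0.0892), Hoxa7 (adjusted p = 0.194) and Hoxb6 (adjusted p = 0.0513) among those lost, and Hoxa3 was lost without small intestine replicate 1 (adjusted p = 0.0710). Hoxa10 lost its call without any 1 of the 5 arrays (adjusted p from 0.0801 to 0.277), and Hoxd11 without small intestine replicate 2 (adjusted p = 0.391) or any 1 colonic array (adjusted p = 0.111, adjusted p = 0.113 and adjusted p = 0.0887).

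**Figure D4:**
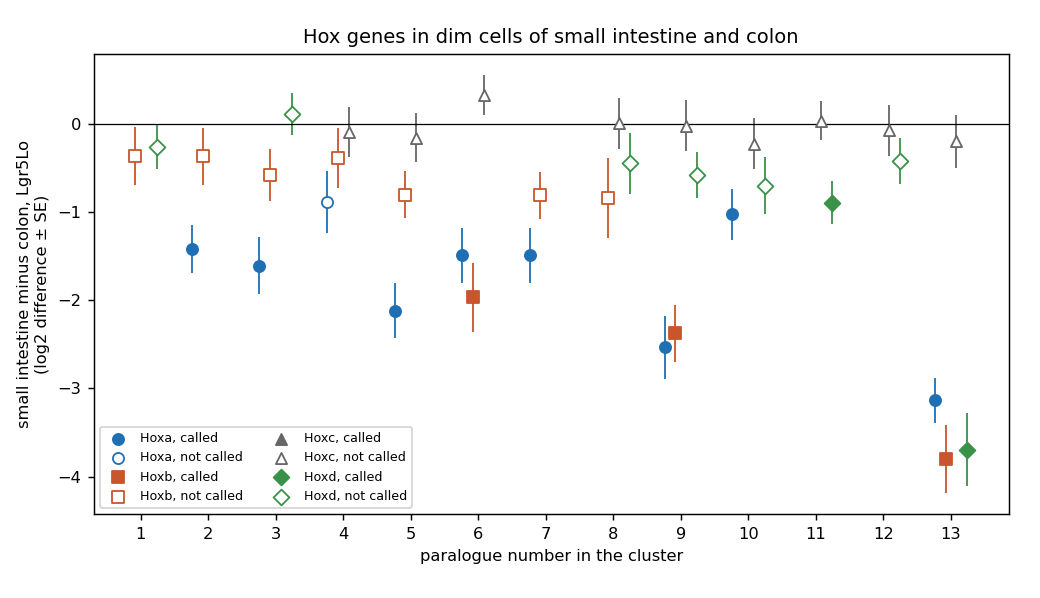
Difference between small intestine and colon in Lgr5Lo cells (y axis, log2, with standard error) of each measured Hox gene by its paralogue number (x axis), with a colour and a symbol for each cluster and filled symbols for called genes. Hoxb13, Hoxd13 and Hoxa13 lie lowest, and all Hoxc genes lie near 0. The levels of the Hoxc genes were near or below background in both organs.

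Of 26 stem cell and Wnt target genes 2 were higher in small intestine and 1 in colon in the dim cells, with a median of 0.12. These shares were 7.69% and 3.85%, against 2.13% and 2.55% of all genes. Olfm4, a secreted marker of small intestinal stem cells, stood at 9.56 and 10.51 in small intestine and 3.66, 4.63 and 3.90 in colon (5.98 ± 0.57, adjusted p = 7.49e-07). Slc14a1, a urea transporter, was higher too (2.03 ± 0.34, adjusted p = 0.000594). Sox9, a factor of crypt base cells, was higher in colon (-1.71 ± 0.45, adjusted p = 0.0291), a call lost without small intestine replicate 1 (adjusted p = 0.613) and colon replicates 1 (adjusted p = 0.109) or 3 (adjusted p = 0.0928). Axin2, a feedback inhibitor of Wnt signalling, stood at 5.90 and 6.78 against 6.50, 5.70 and 5.98 (0.28 ± 0.42, adjusted p = 0.887), and Ascl2, a stem cell factor, at 4.22 and 4.79 against 4.74, 4.29 and 4.52 (-0.01 ± 0.32, adjusted p = 0.998). Cell cycle genes had a positive difference in 36 of 38 measured, against 10296 of 22180 over all genes, with a median of 0.59. Small intestine replicate 1 was below replicate 2 in 32 of the 38, against 11197 of all genes, so the signs are not separate observations. A fit on the 5 arrays alone called 9 of the list higher in small intestine, against 923 of all 22180 genes. In the main fit 1 gene of the list was called higher there, 2.63% against 2.13% of all genes. That 1 was Nusap1, a spindle protein (1.11 ± 0.29, adjusted p = 0.0304), a call lost without small intestine replicate 1 (adjusted p = 0.268) or 2 (adjusted p = 0.115) and without colon replicate 2 (adjusted p = 0.138) or 3 (adjusted p = 0.118). Mki67, a marker of dividing cells, stood at 8.86 and 9.40 against 8.44, 8.10 and 8.25 (0.87 ± 0.37, adjusted p = 0.278).

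Among claudins and keratins 1 of 22 was called, Cldn8, a sodium-sealing tight junction protein, at 7.72, 8.23 and 7.84 in colon and 3.69 and 3.97 in small intestine (-4.10 ± 0.46, adjusted p = 5.15e-06). The keratin Krt8 (10.24 and 11.08 against 11.08, 11.19 and 11.13) and the junction protein Tjp1 (7.85 and 8.57 against 8.05, 7.94 and 7.97) were not called. Of 14 antigen presentation genes 1 was called, the proteasome subunit Psmb9 (1.10 ± 0.30, adjusted p = 0.0377), and this call was lost without any 1 of the 5 arrays (adjusted p from 0.0721 to 0.215). The class II gene H2-Ab1 stood at 8.69 and 9.43 against 7.79, 7.66 and 8.13 (1.20 ± 0.53, adjusted p = 0.288).

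Several of the 15 largest differences towards colon lay outside these lists. Sval1, a seminal vesicle antigen-like protein, stood at 11.12, 10.98 and 10.62 in colon and 4.39 and 2.92 in small intestine (-7.25 ± 1.08, adjusted p = 0.000159). Thbs4, a thrombospondin of the matrix, stood at 9.75, 9.79 and 9.64 against 4.39 and 4.30 (-5.38 ± 0.29, adjusted p = 5.29e-10). Sycn, syncollin of secretory granules, stood at 12.45, 12.80 and 12.71 against 7.31 and 7.23 (-5.38 ± 0.77, adjusted p = 0.000104). The colonic arrays were tightly grouped for all 3, and Sycn was the only one well above background in small intestine. Plet1, a surface protein (-5.74 ± 0.58, adjusted p = 1.44e-06), Ccn3, a matricellular signal protein (-5.32 ± 0.44, adjusted p = 1.12e-07), Tgm3, a transglutaminase (-5.28 ± 0.58, adjusted p = 3.96e-06), Anxa1, a phospholipid-binding annexin (-5.15 ± 0.38, adjusted p = 3.22e-08), and the acyltransferase Mboat1 (-5.04 ± 0.46, adjusted p = 4.62e-07) were of like size. The sulfotransferase Sult1a1 (-5.01 ± 0.58), the gasdermin Gsdmc3 (-4.98 ± 0.52) and the hydroxyacid oxidase Hao2 (-4.96 ± 0.64) completed the set. Gsdmc3 belongs to a gene family whose copies can share signal.

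Most markers of cells outside the intestinal epithelium were not called, and some lay well above background. Of 19 lymphocyte and plasma cell markers, 15 fibroblast and smooth muscle markers and 9 endothelial, glial and red cell markers none was called in limma. With 4.68% of all genes called, few calls would fall in lists of this size. In these lists 3, 2 and 0 genes had an unadjusted p under 0.05. Their mean levels lay between 3.58 and 4.28 in every array, near background. Of the same lists 8, 4 and 3 genes lay below 3.93 in all 5 arrays. The pan-leukocyte gene Ptprc stood at 3.82 and 3.68 against 4.47, 4.08 and 5.00, and the collagen Col1a1 at 4.39 and 4.21 against 4.65, 4.13 and 4.26. Of 17 myeloid and mast cell markers 1 was called, Cd14, the lipopolysaccharide co-receptor, higher in colon (-2.07 ± 0.42, adjusted p = 0.00352). Of 16 gastric markers 2 were higher in small intestine, Gkn3 at 8.28 and 7.44 against 3.84, 3.52 and 3.23 (4.33 ± 0.35, adjusted p = 7.52e-08) and the pepsinogen Pgc at 7.11 and 6.07 against 4.63, 4.29 and 3.67 (2.40 ± 0.32, adjusted p = 3.62e-05, but adjusted p = 0.411 with all arrays of the reporter line and adjusted p = 0.182 with all 42 arrays in the fit), while the defining gastric genes Gkn1, Muc5ac and Atp4b lay between 3.48 and 4.86 in all 5 arrays. Of 12 pancreatic acinar markers 1 was called, the elastase Cela1, higher in colon at 8.75, 9.23 and 9.08 against 5.25 and 5.58 (-3.61 ± 0.39, adjusted p = 2.95e-06), and Cpa1, Cpb1 and Prss2 were at or below 3.45 in every array. The mean level of this list was 4.8 and 4.9 in small intestine and 5.0, 5.1 and 5.1 in colon. Of its 12 genes 5 lay below 3.93 in all 5 arrays. None of 18 immediate early and heat shock genes was called in limma or had an unadjusted p under 0.05, with Fos at 7.07 and 5.42 in small intestine and 6.55, 6.50 and 6.93 in colon.

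The same organs were also sorted for Lgr5Hi cells, which allowed a test of whether the organ difference had the same size in bright cells. In Lgr5Hi cells 641 genes were called, 2.89% of those tested. Of the 1038 genes called in dim cells, 1022 had the same sign in bright cells, 98.5%, against 68.4% of all genes, and 484 were called in the same direction there, which is 46.6% of the dim and 75.5% of the bright calls. The bright difference was the smaller in 882 of the 1038, which were chosen by their dim difference. The difference of the differences itself was called for 3 genes, 0.0135% of those tested, and 501 had an unadjusted p under 0.05. Dim and bright arrays of an organ with the same replicate number deviated from their group means together, with a correlation across genes of 0.37 in small intestine and 0.14 to 0.24 in colon, against -0.25 to 0.11 for colonic arrays of different numbers. Both colonic arrays numbered 1 were low in Xist, at 3.09 in dim and 3.44 in bright cells. The dim and bright values are thus not independent, and whether they come from the same animals is not in the labels. With tissue and number as a random block 3 genes were called in the difference of differences.

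Afp, alpha-fetoprotein, stood at 10.22 and 9.56 in dim and 5.67 and 6.99 in bright cells of the small intestine, and between 3.17 and 3.86 in all 6 colonic arrays. Its organ difference was 6.48 ± 0.37 in dim and 2.84 in bright cells (adjusted p = 8.01e-10 in dim cells), and the 2 differed by 3.64 ± 0.52 (adjusted p = 0.0104). Trpa1, an ion channel of enterochromaffin cells, stood at 6.98 and 5.49 in dim and 3.09 and 3.76 in bright small intestinal cells and at 2.49, 2.72 and 2.24 in dim colonic cells. The organ difference of 3.75 ± 0.36 in dim cells was 0.64 in bright cells, and the 2 differed by 3.11 ± 0.51 (adjusted p = 0.0446). Cyp2e1, a cytochrome P450, went the other way, with 5.05 and 5.91 in dim and 8.53 and 8.24 in bright small intestinal cells and 3.74, 3.89 and 3.58 in dim colonic cells. Its organ difference was 1.74 ± 0.29 in dim and 4.62 in bright cells, and the 2 differed by -2.88 ± 0.41 (adjusted p = 0.0104). The count of 3 became 0 without small intestine Lgr5Lo replicate 1, colon Lgr5Lo replicate 2 or small intestine Lgr5Hi replicate 1, 25 without small intestine Lgr5Hi replicate 2, and 2 without colon Lgr5Lo replicate 1 or 3 or any 1 Lgr5Hi array of the colon.

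Lct differed by 4.14 ± 0.61 between organs in dim cells and by 1.44 in bright cells. Its bright arrays lay far apart in small intestine, at 3.86 and 7.12, against 4.52, 3.50 and 4.12 in colon. Enpep differed by 5.56 ± 0.55 in dim and 2.98 in bright cells. The difference of differences did not pass for Lct or Enpep (adjusted p = 1.00 and adjusted p = 1.00). Olfm4 had values of 5.98 ± 0.57 in dim and 7.73 in bright cells, which did not pass either (adjusted p = 1.00). The Paneth cell gene Defa21 had values of 9.22 ± 1.26 in dim and 9.46 in bright cells, and Retnlb of -6.91 ± 0.42 and -6.81.

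**Figure D5:**
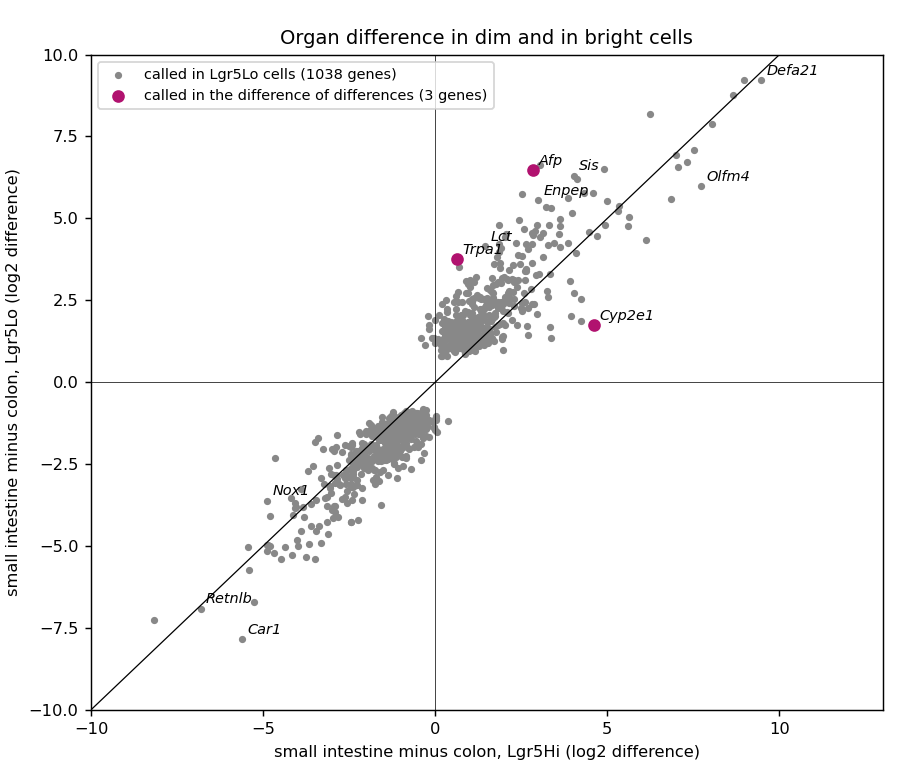
Difference between small intestine and colon (log2) in Lgr5Hi cells (x axis) and Lgr5Lo cells (y axis) for the 1038 genes called in Lgr5Lo cells, with the 3 genes called in the difference of differences in magenta. The line marks equal differences, and Afp and Trpa1 lie above it and Cyp2e1 below it.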

How the data were processed

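RNA of sorted cells was amplified and hybridised to 1-colour mouse Affymetrix arrays, per the labels' protocols. The deposited values are log2 intensities of probe sets, and the submitters' processing notes name RMA, oligo, limma, R and Partek with no order or role. The genome build is not given in the sources used here. Of 41345 probe sets, the 23521 with 1 gene symbol were kept, and the one with the highest mean stood for each of 22180 genes. A mean per group was fitted to 18 sorted arrays of 6 groups with limma 3.58.1 (R 4.3.3, lmFit and eBayes, 12 residual and 7.70 prior degrees of freedom). No value was scaled again or filtered. Array medians of the 5 arrays ran from 3.82 to 3.97. The number of arrays limits the precision.

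Simulated data of this comparison with 22180 genes served as a check. There, 82 of 100 genes changed by 2 on the log2 scale and 18 of 100 changed by 1 were called. Among the 103 calls 3 were false. These shares describe the simulated data only. In the measured data, dim and bright arrays of an organ with the same replicate number deviated together. Whether the shares carry over to the measured genes was not tested. The 32 lists held 699 genes, of which 635 were measured. The members and lists were chosen with earlier results of these data known. Named were Lgr5, the 4 markers, the 15 largest called differences in each direction whose arrays did not overlap (without unnamed gene models, small RNA, receptor segment, olfactory and sex chromosome genes), the genes called in the difference of differences, and up to 8 members of a list, those with the smallest p first. Members that were not called, and those beyond 8 in a list, were chosen after their values were seen. Alternatives were other sets of arrays in the fit, a replicate block, a random block, another variance moderation, 2 scalings, a filter on low values, other probe set rules and each array left out.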

Additional observations from a re-analysis of the deposited data

Results flagged for a closer look

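The organ difference was tested for being unequal between Lgr5Lo and Lgr5Hi cells, and 3 genes passed at an adjusted p under 0.05 in limma. For Afp the difference between small intestine and colon was larger in Lgr5Lo cells by 3.64 (adjusted p = 0.0104). For Trpa1 it was larger in Lgr5Lo cells by 3.11 (adjusted p = 0.0446). For Cyp2e1 it was smaller in Lgr5Lo cells, by a difference of -2.88 (adjusted p = 0.0104). Over the alternatives the adjusted p ran from 1.22e-05 to 0.241 for Afp, from 0.000108 to 0.931 for Trpa1 and from 3.16e-05 to 0.241 for Cyp2e1, and the sign was the same in each. What lies behind these values was not tested.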

How the results depend on the processing

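The count of 1038 genes became 1928 in a fit on the 5 arrays alone, which called 1036 of the 1038 again, and ranged from 499 (without small intestine replicate 1) to 892 (without replicate 2) when single arrays were left out. With 1 small intestinal array left, that sample is assumed to vary like the other groups. The other alternatives gave 990 to 1523 genes. The replicate block gave 1127 genes and 2 in the difference of differences. The shared numbers did not pair small intestine with colon, with correlations of deviations of 0.03 and -0.04 for the 2 numbers in common. Tissue and number as a random block, which ties dim to bright arrays of an organ, gave 1048 genes and 3 in the difference of differences. The 3 genes of the difference of differences became 16 with all 42 arrays in the fit and 0 to 25 with an array left out. Among 188 called genes of the named and listed genes none changed sign, 114 kept their call in every alternative and 74 lost it in at least 1, 51 of them without small intestine replicate 1. The cause was not tested. The arrays carry no detection calls, so 296 called differences are lower bounds.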
